A study of Mus musculus with 24 samples.

Results

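The type I interferon response genes described here are 42 mouse genes named by symbol in a list; the rule for membership uses no measured value, but the list was drawn up with earlier results of these data known. All 42 were present among the 55414 gene identifiers of every count file, and all 42 passed the filter on low counts that left 19616 genes for testing. Ddx58, which is also named Rigi, was found under its older symbol. Counts came from bulk RNA sequencing of LSK cells, the bone marrow fraction without lineage markers that carries both Sca-1 and Kit and contains the blood stem cells and multipotent progenitors. The cells were sorted from pups at postnatal day 21. The 4 groups of 6 libraries were female pups of Western-diet dams, female pups of control dams, male pups of Western-diet dams and male pups of control dams. Dams were C57BL/6J mice that ate the Western diet TD.88137, given to induce maternal obesity, or the regular chow 2018SX as control, from 4 weeks before mating through pregnancy and lactation. Each group had 2 libraries in each of 3 labelled batches. Neither dams nor litters are labelled, so a p-value reflects only how far these libraries spread, and littermates may be among them.

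Type I interferons are secreted when cells sense foreign or misplaced nucleic acid. They bind the receptor pair IFNAR1 and IFNAR2, whose kinases JAK1 and TYK2 activate a transcription complex that includes STAT2 and IRF9. The complex binds interferon-stimulated response elements and switches on antiviral genes. In bone marrow, interferon is known to drive quiescent hematopoietic stem cells into cycle, and Sca-1, one of the markers that define LSK cells, is itself an interferon-induced protein in mice.

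Libraries held 38057263 to 51581968 counts in genes. Kit, the stem cell factor receptor, lay between 267 and 883 CPM (read counts scaled to library size by TMM) in all 24 libraries, and Cd34 between 227 and 953 CPM. Ly6a, which encodes Sca-1, lay between 2.14 and 39.9 CPM. Cd3e, a T cell gene, stayed at or below 1.25 CPM, while the 8 T and NK cell markers together summed to 11.1 to 40.0 CPM. Markers of some other cells were not low. The 10 macrophage and monocyte markers summed to 350 to 1695 CPM over all libraries. The 10 B and plasma cell markers summed to 375 to 2212 CPM. The 8 erythroid markers summed to 918 to 7407 CPM, beside 969 to 2458 CPM for the 8 LSK markers. Several libraries stood apart in the interferon genes before any comparison was made. Female control libraries 5 and 6, both of batch 3, were above the 24-library median in only 5 and 3 of the 42 genes, although 44.7% and 45.7% of all tested genes were above theirs. They were the lowest pair of the 12 female libraries for 24 of 42 members (57.1%), against 10.5% of all genes tested. Male control library 1, of batch 1, was above the median in all 42 genes and was the highest of all libraries for 32 of them (76.2%), against 9.14% of all genes. Male control library 3, of batch 2, was also above the median in all 42. Male control library 5 and Western-diet male library 6, both of batch 3, were each above it in 5. Main results that rest on female control libraries 5 and 6 or on male control library 1 are given with and without them.

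**Figure D1:**
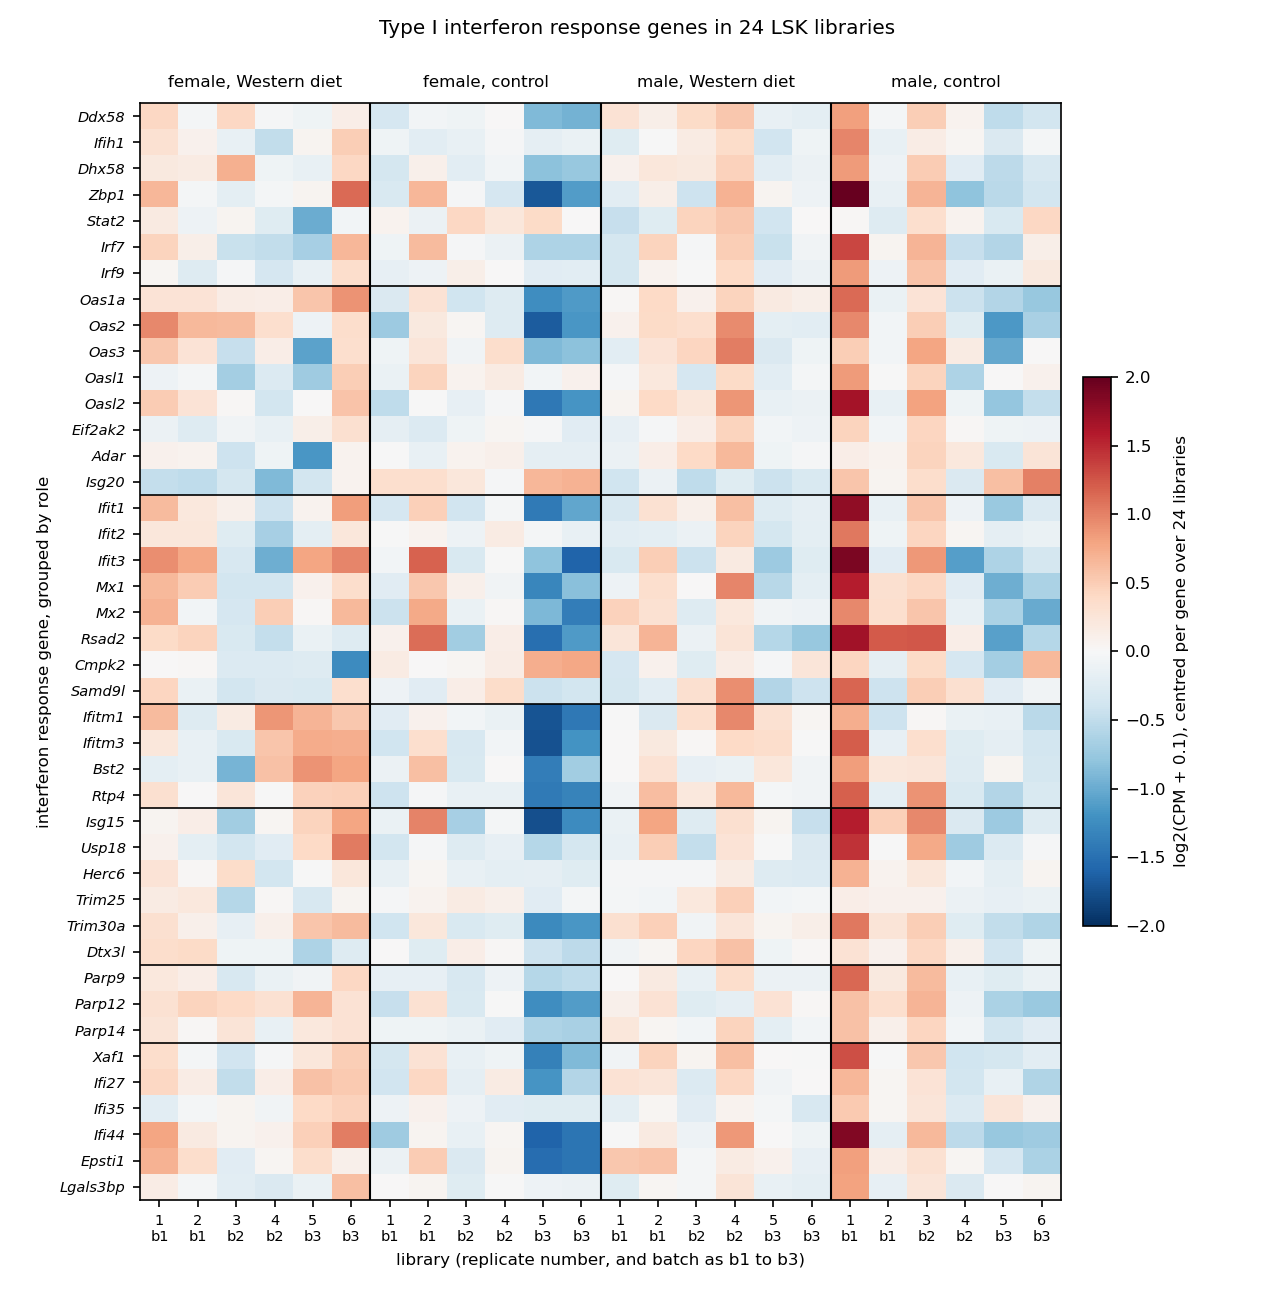
Each row is one of the 42 genes, grouped by role, and each column is one of 24 libraries with its replicate number and batch (b1 to b3); colour is log2(CPM + 0.1) centred per gene, from blue (low) to red (high), with the scale ending at 2 and -2. Female control libraries 5 and 6 are blue in most rows and male control library 1 is red in most rows, while Isg20 runs against the other genes in both control groups of batch 3.

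The 42 genes varied more among the control libraries than among the Western-diet libraries of each sex. The median coefficient of variation over the 42 genes was 24.4% in Western-diet females, 34.3% in control females, 20.2% in Western-diet males and 39.4% in control males (n = 6 each).

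The first comparison asked which interferon response genes differed with maternal diet in female pups. In Western-diet females 7 of the 42 genes rose and 1 fell relative to control females by edgeR's quasi-likelihood test at an adjusted p under 0.05, when 5.42% of all 19616 genes tested passed, 2.2% higher and 3.22% lower. The genes that rose were Oas2, Ifitm1, Oas1a, Parp12, Trim30a, Ddx58 and Parp14, and the one that fell was Isg20. The log2 fold change was positive for 35 of the 42 and negative for 7, with a median of 0.49 beside 0.03 over all genes. At an unadjusted p under 0.05, 18 genes were higher and 2 were lower. The share of all genes at an unadjusted p under 0.05 was not computed for this or any later comparison. Counts of members at that cutoff are therefore not set against all genes. In bulk samples, more cells of a type and more RNA per cell cannot be told apart. The Oas, Trim30, Ifit, Ifitm and Mx genes have close relatives that can share reads, so single values in those families are uncertain. In the GRCm38 annotation 13 of the 42 share exonic bases with another gene, 9 of them with one on the other strand, and a kit that does not mark strand cannot tell such reads apart.

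Isg20 encodes an exonuclease that degrades single-stranded RNA, including viral RNA (ENSMUSG00000039236, chromosome 7). It had a lowest, median and highest value of 34.6, 47.7 and 67.2 CPM in Western-diet females, against 63.0, 80.8 and 104 CPM in control females. All Western-diet libraries except number 6 lay below every control library. The mean was 48.7 ± 10.6 CPM in Western-diet females and 84.1 ± 15.6 CPM in control females (SD, n = 6 each). This is a 1.72-fold lower level (log2 fold change -0.78 ± 0.14 SE), with an adjusted p of 0.00165 from edgeR's quasi-likelihood test. The log2 fold change was alike in batches 1, 2 and 3, at -0.83, -0.71 and -0.81. It was -0.75 without female control libraries 5 and 6, with an adjusted p of 0.035 from edgeR.

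The oligoadenylate synthetases make the small messenger that activates the antiviral ribonuclease RNase L. Oas2 (ENSMUSG00000032690, chromosome 5) had a lowest, median and highest value of 14.7, 22.2 and 30.8 CPM in Western-diet females, against 4.91, 11.3 and 18.1 CPM in control females. The groups overlapped only through Western-diet library 5. Oas2 was 2.08-fold higher (log2 1.06 ± 0.22 SE, adjusted p = 0.00597 by edgeR), with 1.01, 0.60 and 1.55 in batches 1, 2 and 3. Oas1a (ENSMUSG00000052776, chromosome 5) ranged from 32.6 to 55.8 CPM with a median of 36.1 in Western-diet females, and from 12.5 to 36.5 CPM with a median of 23.4 in control females. Western-diet libraries 5 and 6 lay above all controls, and control library 2 overlapped the other 4. Oas1a was 1.89-fold higher (log2 0.91 ± 0.25 SE, adjusted p = 0.035 by edgeR), with 0.25, 0.47 and 1.93 in batches 1, 2 and 3. The other RNA enzymes did not pass in females: Oas3 stood at 0.26 and Oasl2 at 0.77 on the log2 fold scale. Oasl1, whose mouse protein restrains translation of Irf7, stood at -0.28. Eif2ak2, the kinase PKR that halts translation on double-stranded RNA, stood at 0.11, and Adar, the enzyme that edits adenosines in such RNA, at -0.13.

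Among the sensors, Ddx58 encodes RIG-I, the helicase that detects viral RNA in the cytosol (ENSMUSG00000040296, chromosome 4). It ranged from 27.9 to 39.4 CPM with a median of 30.8 in Western-diet females, and from 15.4 to 29.7 CPM with a median of 25.7 in control females. In all, 3 Western-diet libraries (numbers 1, 3 and 6) lay above all controls. Ddx58 was 1.45-fold higher (log2 0.54 ± 0.15 SE, adjusted p = 0.0349 by edgeR), with 0.39, 0.25 and 0.95 in batches 1, 2 and 3. Its relatives Dhx58 (LGP2) and Ifih1 (MDA5) stood at 0.59 (adjusted p = 0.0527 by edgeR) and 0.21. Zbp1, which senses Z-form nucleic acid, stood at 0.78 with a standard error of 0.43. The members of the transcription complex were close to 0 or below it: Irf9 stood at 0.06 and Stat2 at -0.32, and Irf7, which amplifies interferon production, stood at 0.14.

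Membrane effectors included Ifitm1, a transmembrane protein of a family that blocks virus entry (ENSMUSG00000025491, chromosome 7). It ranged from 83.4 to 183 CPM with a median of 149 in Western-diet females, and from 29.9 to 105 CPM with a median of 87.7 in control females. Only Western-diet library 2 overlapped the controls, and control libraries 5 and 6, at 29.9 and 36.7 CPM, lay far below the other controls. Ifitm1 was 2.00-fold higher (log2 1.00 ± 0.27 SE, adjusted p = 0.0309 by edgeR), with 0.32, 0.66 and 2.19 in batches 1, 2 and 3. Rtp4, a chaperone of receptor trafficking, was the one member whose 2 female groups did not overlap, at 55.2 to 76.9 CPM in Western-diet females and 20.8 to 54.7 CPM in control females; groups did not overlap for 1.18% of all genes. Its log2 fold change was 0.85 ± 0.26 SE with an adjusted p of 0.0516 by edgeR, so it did not pass. Ifitm3 (0.85) and Bst2, the tetherin that holds virus particles at the cell surface (0.54), did not pass either.

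Of the ubiquitin-like modifiers and ligases, Trim30a was the one that rose. Its mouse protein restrains Toll-like receptor signalling (ENSMUSG00000030921, chromosome 7). It ranged from 40.5 to 70.1 CPM with a median of 52.7 in Western-diet females, and from 18.7 to 53.3 CPM with a median of 35.5 in control females. In all, 3 Western-diet libraries (numbers 1, 5 and 6) lay above all controls. Trim30a was 1.74-fold higher (log2 0.80 ± 0.23 SE, adjusted p = 0.0372 by edgeR), with 0.27, 0.25 and 1.81 in batches 1, 2 and 3. Isg15, the ubiquitin-like protein that is attached to targets during the response, stood at 0.63 ± 0.36 SE, and Usp18, which removes it and dampens receptor signalling, stood at 0.49 ± 0.29 SE. The ligase Herc6 stood at 0.25, Dtx3l at 0.14 and Trim25, which ubiquitinates RIG-I, at -0.06.

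Of the 3 ADP-ribosyltransferases 2 rose in females, both of which attach single ADP-ribose units to proteins. Parp12 (ENSMUSG00000038507, chromosome 6) ranged from 7.42 to 9.71 CPM with a median of 7.76 in Western-diet females, and from 2.49 to 7.48 CPM with a median of 4.62 in control females. It was 1.82-fold higher (log2 0.86 ± 0.23 SE, adjusted p = 0.028 by edgeR), with 0.41, 0.51 and 1.71 in batches 1, 2 and 3. Parp14 (ENSMUSG00000034422, chromosome 16) ranged from 18.3 to 24.8 CPM with a median of 23.8 in Western-diet females, and from 12.9 to 19.1 CPM with a median of 17.9 in control females. For both genes 5 of 6 Western-diet libraries lay above every control. Parp14 was 1.38-fold higher (log2 0.47 ± 0.14 SE, adjusted p = 0.0488 by edgeR), with 0.23, 0.25 and 0.89 in batches 1, 2 and 3. Parp9, which pairs with Dtx3l, stood at 0.37 and did not pass.

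No member of the IFIT, MX and viperin group passed in females. Ifit1, which binds foreign RNA, stood at 0.74, Ifit3 at 0.67 and Ifit2 at -0.03. The dynamin-like GTPases Mx1 and Mx2 stood at 0.49 and 0.62; most laboratory mouse strains, C57BL/6 among them, carry an Mx1 allele without antiviral function. Rsad2, which encodes viperin, stood at 0.27. Its chromosome neighbour Cmpk2, a mitochondrial nucleotide kinase, stood at -0.62 ± 0.22 SE with an adjusted p of 0.1 by edgeR, and 5 of 6 Western-diet libraries lay below all controls. Samd9l, a translation-blocking effector, stood at 0.11. Of the remaining genes, Ifi44 had the highest log2 fold change of all 42, 1.12 ± 0.37 SE, but an adjusted p of 0.0806 by edgeR. Epsti1 (0.66), the apoptosis regulator Xaf1 (0.54), Ifi27 (0.51), Ifi35 (0.25) and the secreted glycoprotein gene Lgals3bp (0.11) did not pass.

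**Figure D2:**
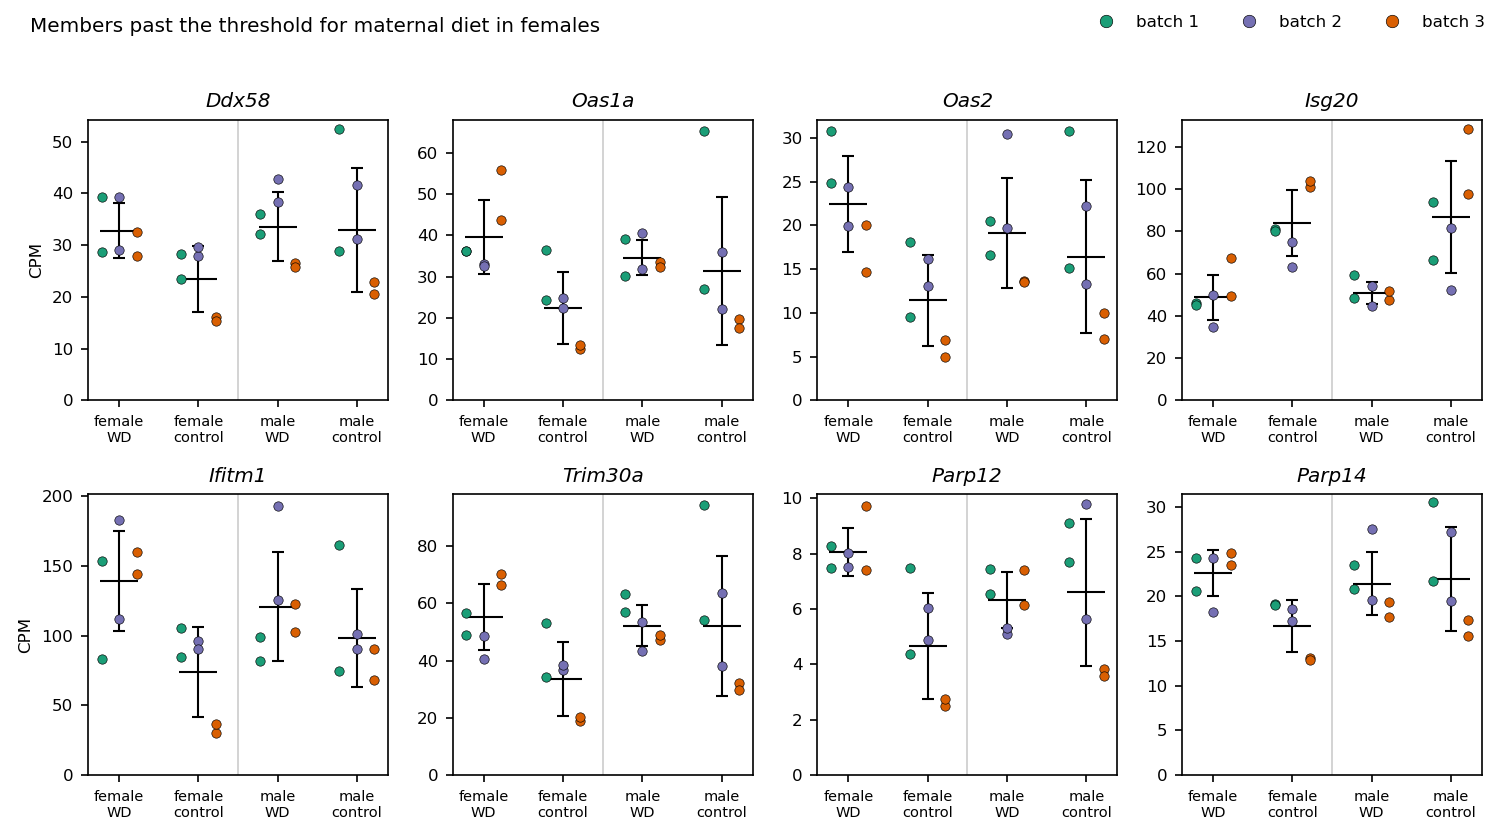
Points are CPM of single libraries for the 8 genes past the threshold for maternal diet in females, coloured by batch, in Western-diet females, control females, Western-diet males and control males; bars are the mean ± SD of 6 libraries. In Isg20 the Western-diet groups sit low in both sexes, while in the other 7 genes the control females of batch 3 are the lowest female points.

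Without female control libraries 5 and 6, Isg20 was the only one of the 42 that passed in females, and the share of all genes that passed was 0.763%, against 5.42% with all libraries. The 7 genes that had risen were then at log2 fold changes from 0.37 for Parp14 to 0.90 for Oas2, with adjusted p from 0.123 for Oas2 to 0.403 for Trim30a by edgeR. Each of the 7 stayed positive. Over the 42 genes 35 were positive and 7 negative, with a median of 0.27, and Irf7 and Ifit2, both near 0, changed sign. Leaving out single libraries moved the count of 8 as well. It was 2 without Western-diet female library 5 or female control library 5 or 6, when 2.9%, 2.69% and 2.54% of all genes passed, and Oas2 and Isg20 were called without each single library. Over 36 other settings the call was lost in 30 for Parp14, 20 for Ddx58, 17 for Trim30a, 15 for Oas1a, 13 for Ifitm1, 10 for Parp12, 3 for Oas2 and 0 for Isg20.

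The promoters of the genes that rose were read for the core of the interferon-stimulated response element. The motif searched was GAAANNGAAA on either strand, where the other strand reads TTTCNNTTTC, in windows of 300 bases from 250 before to 50 after each RefSeq gene start in build GRCm38.p6, an older build than the GRCm39 of the counts. Of 32 members with a window in the table, 13 (40.6%) held the motif, compared with 3.99% of 27025 genes. Among the 8 genes called in females, Ddx58, Oas1a and Trim30a held it, and Ifitm1, Parp12 and Isg20 had windows without these letters. The 3 that held it follow in the sense of the gene, with every base of a match in capitals. The windows are chr4:40239776-40240075 for Ddx58, chr5:120907476-120907775 for Oas1a and chr7:104465144-104465443 for Trim30a, all on the minus strand. Trim30a has a second window with the same match.
Ddx58: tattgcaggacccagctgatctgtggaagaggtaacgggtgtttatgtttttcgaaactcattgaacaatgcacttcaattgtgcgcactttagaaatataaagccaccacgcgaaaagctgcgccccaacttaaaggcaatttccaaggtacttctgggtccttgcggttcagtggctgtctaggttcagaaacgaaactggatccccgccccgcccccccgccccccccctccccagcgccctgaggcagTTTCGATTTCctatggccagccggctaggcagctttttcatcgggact
Oas1a: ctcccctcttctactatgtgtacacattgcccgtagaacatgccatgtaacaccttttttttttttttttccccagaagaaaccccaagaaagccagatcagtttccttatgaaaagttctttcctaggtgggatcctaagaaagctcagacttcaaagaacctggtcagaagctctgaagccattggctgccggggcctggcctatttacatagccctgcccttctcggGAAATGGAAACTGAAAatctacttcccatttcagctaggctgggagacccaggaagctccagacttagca
Trim30a: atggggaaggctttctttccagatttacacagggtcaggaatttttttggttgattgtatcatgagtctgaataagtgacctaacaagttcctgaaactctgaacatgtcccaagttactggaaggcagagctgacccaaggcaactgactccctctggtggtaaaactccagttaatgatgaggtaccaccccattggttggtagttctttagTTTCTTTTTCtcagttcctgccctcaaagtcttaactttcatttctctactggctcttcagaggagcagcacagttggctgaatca
Oas1a held 2 overlapping matches, starting 20 and 14 bases before its start, Trim30a held one 36 bases before its start, and the match of Ddx58 lay just after its start. The median log2 fold change in females was 0.54 for the 13 members with a match and 0.14 for those with a window and no match, a difference that was not tested.

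The second comparison asked the same of male pups. None of the 42 genes passed in males, where 0.0102% of all genes tested did. The log2 fold change was positive for 15 and negative for 27, with a median of -0.08, and 3 genes were lower and 0 higher at an unadjusted p under 0.05. DESeq2 and limma-voom each called 1 member, Isg20, when 0.505% and 0.571% of all genes passed.

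Isg20 had a lowest, median and highest value of 44.8, 50.2 and 59.3 CPM in Western-diet males, against 52.3, 87.9 and 128 CPM in control males. The groups overlapped only through Western-diet libraries 2 and 4 and control library 4. Its log2 fold change was -0.72 ± 0.14 SE with an adjusted p of 0.0617 by edgeR, and -0.57, -0.44 and -1.18 in batches 1, 2 and 3. Without control library 4 the adjusted p was 0.0295, and without Western-diet library 4 it was 0.0401. In the average over both sexes Isg20 fell 1.69-fold (log2 -0.75 ± 0.10 SE, adjusted p = 6.67e-05 by edgeR).

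The other 3 genes with the smallest unadjusted p in males were Rsad2, Ifi35 and Ifit2, and none passed. Rsad2 had a lowest, median and highest value of 15.9, 28.3 and 43.3 CPM in Western-diet males, against 12.7, 46.5 and 86.6 CPM in control males. The Western-diet values lay inside the range of the controls, and the log2 fold change was -0.57 ± 0.26 SE (adjusted p = 0.575 by edgeR). Ifi35, which with Nmi modulates innate signalling, had 50.8, 58.9 and 67.1 CPM in Western-diet males, against 52.7, 71.4 and 91.8 CPM in control males, at -0.26 ± 0.13 SE. Ifit2 had 24.6, 27.4 and 42.8 CPM in Western-diet males, against 27.6, 30.9 and 65.3 CPM in control males, at -0.32 ± 0.18 SE. Without male control library 1 the 42 genes were positive in 26 and negative in 16, with a median of 0.08, so the sign of the median in males rests on that library.

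**Figure D3:**
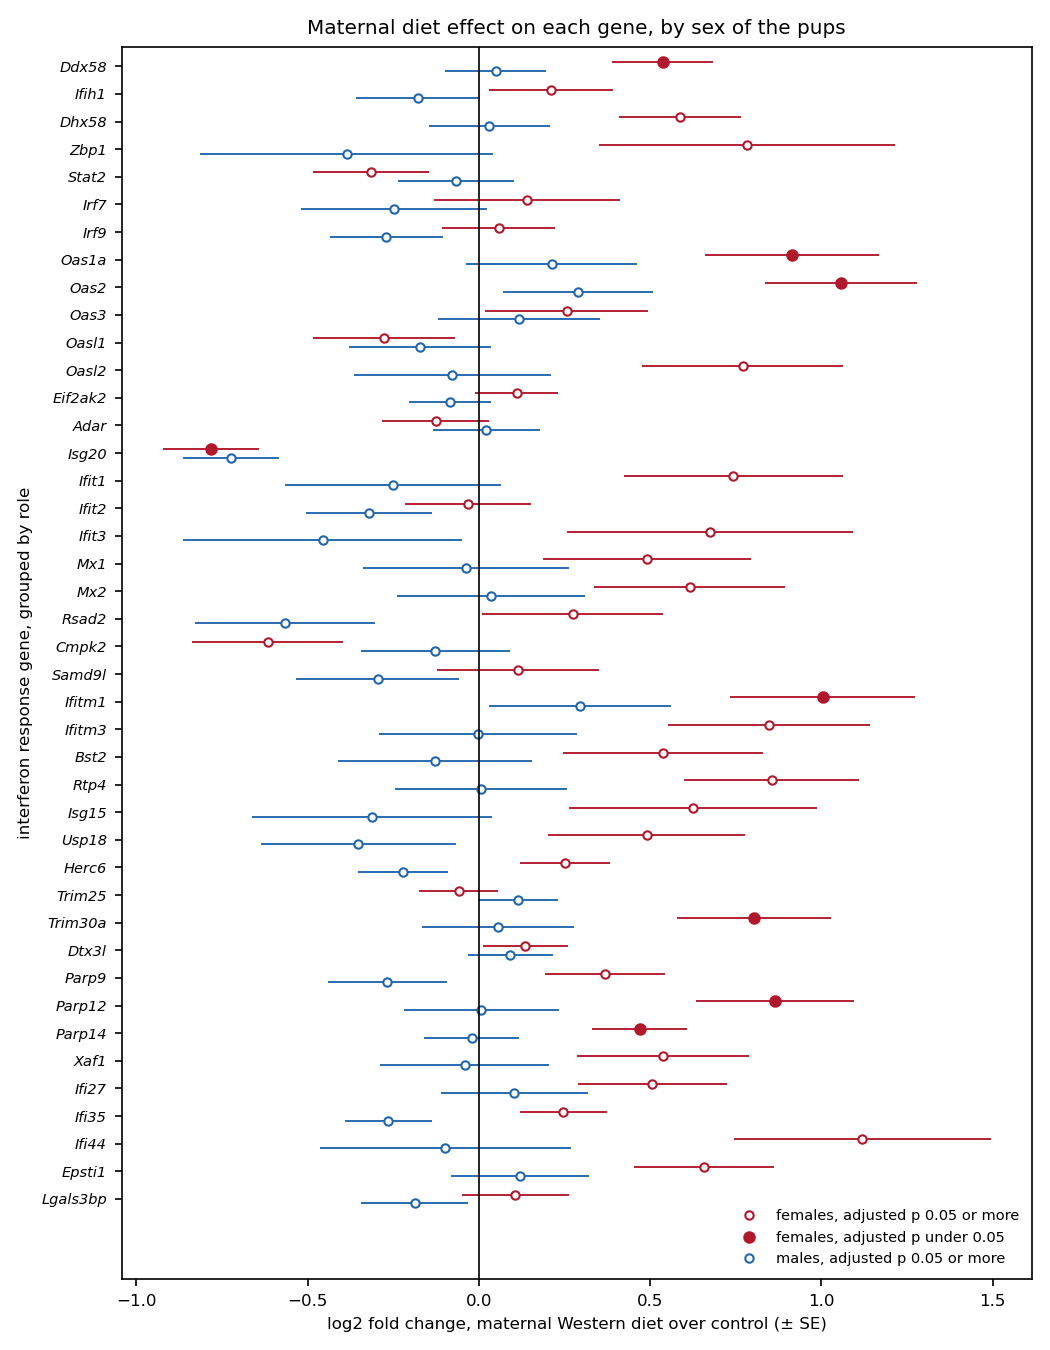
Points are log2 fold changes of maternal Western diet over control for each of the 42 genes in females (red) and males (blue), with bars of 1 SE; filled points passed an adjusted p of 0.05. Most red points lie right of 0 with a median of 0.49 and most blue points near it with a median of -0.08, while Isg20 lies left of 0 in both sexes.

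Averaged over sexes, Oas2 (0.67 ± 0.16 SE, adjusted p = 0.0104 by edgeR) and Ifitm1 (0.65 ± 0.19 SE, adjusted p = 0.0454) rose and Isg20 fell, when 5.7% of all genes passed (2.19% higher and 3.51% lower). Without male control library 1, 9 members passed in this average (5.69% of all genes), and without female control libraries 5 and 6 only Isg20 did (2.22%). The Ifitm1 call was lost in 24 of 35 other settings and the Oas2 call in 4. The difference between the diet effects, male minus female, was tested directly. None of the 42 genes passed, nor did any of the 19616 genes (0%), and DESeq2 and limma-voom called 0 members. The difference was negative for 36 of 42 genes with a median of -0.53, and 16 were lower and 0 higher at an unadjusted p under 0.05. It was also negative for 36 genes without female control libraries 5 and 6, with a median of -0.40. Without male control library 1 it was negative for 36 genes, with a median of -0.38. Isg20 differed least among the genes called in females, by 0.06 ± 0.20 SE. Parp12 differed by -0.86 ± 0.32 SE and Oas2 by -0.77 ± 0.31 SE, each at an adjusted p of 0.589 by edgeR. Both diet effects use separate control groups, and both control groups hold libraries that stand apart.

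The female diet values were then taken within each batch, with 2 libraries a group. In batch 1 the log2 fold change was positive for 34 of 42 genes with a median of 0.20, and in batch 2 for 19 with a median of -0.07. No member passed in either batch by edgeR, where 0.0306% and 0.724% of all genes did (0.561% lower in batch 2); at an unadjusted p under 0.05, 2 were higher and 1 lower in batch 1, and 0 higher and 2 lower in batch 2. In batch 3, 24 members rose and 2 fell, with a median of 1.04, when 19.3% of all genes passed (8.57% higher and 10.7% lower). The values in batch 3 exceeded those in both other batches for 35 of the 42 genes. How many of all genes did so was not computed, so the 35 are not set against them.

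The difference itself, batch 3 minus the mean of batches 1 and 2, was higher for 9 members and lower for 0 by edgeR, when 7.11% of all genes passed (3% higher and 4.1% lower). Batch 3 was set against the others because earlier results of these data had shown it apart. The p-values of this difference are therefore not independent of that choice. The 9 were Isg15 (2.32), Bst2 (1.99), Ifitm3 (1.97), Ifitm1 (1.70), Oas1a (1.57), Epsti1 (1.56), Trim30a (1.55), Ifi27 (1.38) and Parp12 (1.25). With limma-voom 6 of the 9 passed (3.73% of all genes), and Isg15, Parp12 and Ifi27 did not, at adjusted p-values of 0.119, 0.11 and 0.0826. Isg15 had 25.3 and 32.1 CPM in the Western-diet females of batch 3, against 5.40 and 7.75 CPM in their controls. In batch 1 it had 19.4 and 20.5 CPM in Western-diet females, against 17.1 and 36.99 CPM in control females, and in batch 2 it had 11.4 and 19.2 CPM in Western-diet females, against 11.7 and 18.02 CPM in control females. The batch 3 controls were thus the lowest values, and the groups overlapped in batches 1 and 2. Epsti1, which had the smallest p of the 9, had 38.5 and 32.5 CPM in the Western-diet females of batch 3, against 10.5 and 10.99 CPM in their controls. Oas2 differed by 0.75 ± 0.44 SE and Isg20 by -0.04 ± 0.29 SE, and neither passed. Markers of other cells differed in the same libraries. In batch 3 the 10 macrophage and monocyte markers summed to 845 to 952 CPM in Western-diet females and 506 to 584 CPM in control females. The 10 B and plasma cell markers summed to 519 to 1496 CPM in Western-diet females and 375 to 409 CPM in control females, and the 8 erythroid markers to 1652 to 1944 CPM in Western-diet females and 3121 to 3552 CPM in control females. The 8 neutrophil markers summed to 54.5 to 98.3 CPM in Western-diet females and 17.2 to 24.2 CPM in control females. The 8 LSK markers summed to 1020 to 1273 CPM in Western-diet females and 969 to 993 CPM in control females, whose 2 sums were the lowest of the 24 libraries. Among them Cd34 had 494 and 624 CPM in Western-diet females, against 229 and 227 CPM in control females of batch 3 and 508 to 633 CPM in the other control females. In the batch 3 difference 3 of 10 macrophage, 2 of 8 plasmacytoid dendritic cell, 2 of 8 T and NK cell and 2 of 8 LSK markers were higher, and 1 erythroid marker was lower. Their part in the interferon values was not tested.

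Cmpk2 ran against the group. In batch 3 it had 50.3 and 25.1 CPM in Western-diet females, against 99.7 and 102 CPM in control females, a log2 fold change of -1.42 ± 0.36 SE (adjusted p = 0.0111 by edgeR). Rsad2 stood at 1.12 ± 0.36 SE in the same libraries (adjusted p = 0.0372 by edgeR). Over the 3 batches, 16 genes were positive in each, among them all 7 that rose, and Oasl1, Isg20 and Cmpk2 were negative in each. In males 0 genes were positive in every batch and 7 were negative, namely Irf9, Isg20, Ifit2, Cmpk2, Usp18, Herc6 and Ifi35. The share of all genes with the same sign in every batch was not computed in either sex. The male values had medians of -0.41, 0.08 and 0.21 in batches 1, 2 and 3. Isg20 in batch 3 was the one call in males (adjusted p = 0.0429 by edgeR), when 0.296% of all genes passed (0.0153% higher and 0.28% lower). The corresponding difference of batch 3 in males had a median of 0.34, and no member passed by edgeR, DESeq2 or limma-voom (0% of all genes by edgeR; 4 higher and 1 lower at an unadjusted p under 0.05).

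**Figure D4:**
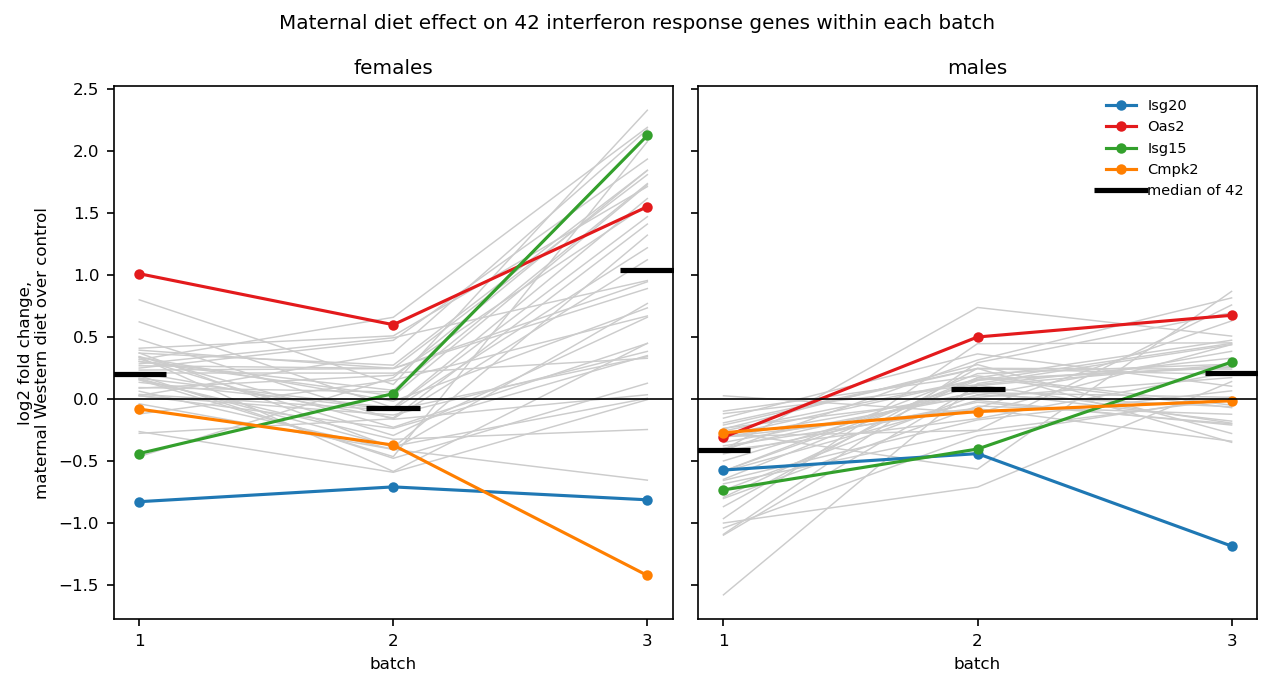
Lines join the log2 fold changes of maternal Western diet over control in batches 1, 2 and 3 for each of the 42 genes, females at left and males at right, with 2 libraries a group in each batch; black bars are medians. In females the medians are 0.20, -0.07 and 1.04, and Isg20 stays between -0.83 and -0.71.

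Sex was compared within each diet. Between Western-diet males and Western-diet females no member passed by edgeR, DESeq2 or limma-voom, when 0.0816% of all genes did (0.0561% higher and 0.0255% lower); 13 log2 fold changes were positive and 29 negative, with a median of -0.08, and 1 gene was higher and 0 lower at an unadjusted p under 0.05. Between control males and control females 39 were positive and 3 negative, with a median of 0.42. None passed by edgeR, DESeq2 or limma-voom, when 0.112% of all genes did (0.0867% higher and 0.0255% lower). At an unadjusted p under 0.05, 21 were higher and 0 lower. The 0.112% is for adjusted p, and the share of all genes at the unadjusted cutoff was not computed. The smallest p belonged to Parp9 (0.61 ± 0.17 SE, adjusted p = 0.155 by edgeR), at 29.6 to 78.2 CPM in control males and 23.7 to 32.7 CPM in control females. Without female control libraries 5 and 6 the median was 0.27 and 3 genes were at that unadjusted p, and without male control library 1 the median was 0.22 and 5 genes were. These values share their control libraries with the diet comparisons and are not independent of them.

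Interferon genes themselves were barely detected. Of 20 type I and III interferon ligands, 7 had no count in any library. Ifnk, the one that passed the filter, had at most 19 counts in a library, and Ifna2 reached the highest count of the others, 21, while Ifnb1 had at most 5. Ifnar1, a receptor chain, averaged 79.9 ± 24.1 CPM in Western-diet females and 80.2 ± 13.8 CPM in control females, and 87.8 ± 27.3 CPM in Western-diet males and 80.1 ± 13.5 CPM in control males (SD, n = 6 each). None of 9 tested receptor and kinase genes passed for diet in either sex by edgeR; in females 1 was higher and 2 lower at an unadjusted p under 0.05, and in males 1 and 1. In the difference of batch 3 from the other batches in females, the receptor kinases Jak1 (-1.05) and Tyk2 (-1.19) were lower.

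Of 13 tested genes of interferon induction none passed for diet by edgeR in either sex, with 2 higher and 1 lower in females and 0 higher and 1 lower in males at an unadjusted p under 0.05. Cgas, the sensor of cytosolic DNA, stood at 0.59 in females and 0.14 in males, and Sting1, the adaptor it signals through, at 0.61 in females and 0.17 in males. The difference of batch 3 in females was 1.48 for Sting1, which passed. Trex1, the nuclease that limits DNA sensing, was listed at 0 in every library. Of 8 brakes on signalling, Irf2bp2, a corepressor partner of Irf2, rose in females (0.47 ± 0.13 SE, adjusted p = 0.0363 by edgeR), and none passed in males. Socs1, which inhibits the receptor kinases, stood at -0.13 in females and was lower in the batch 3 difference (-2.90).

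Of 59 tested other interferon-induced genes outside the 42, 52 were positive and 7 negative in females, with a median of 0.42. Of the 59, 2 rose and 0 fell, when 5.42% of all genes passed (2.2% higher and 3.22% lower). They were Trim30d (0.74 ± 0.19 SE, adjusted p = 0.0236 by edgeR) and Rnf213, a large ubiquitin ligase (0.38 ± 0.11 SE, adjusted p = 0.0488). In males 0 passed, with 18 positive and 41 negative, and in the average Ube2l6, the conjugating enzyme of Isg15, fell (-0.41 ± 0.12 SE, adjusted p = 0.0369 by edgeR). Without the female pair of batch 3 none of the 59 passed in females. Ly6a had 7.95 to 22.2 CPM in Western-diet females, against 2.14 to 16.8 CPM in control females, at 1.07 ± 0.38 SE (adjusted p = 0.0994 by edgeR). Its 2 lowest values, 2.14 and 4.41 CPM, were those of female control libraries 5 and 6, and its highest, 39.9 CPM, was that of male control library 1.

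Markers of LSK cells and of other cell types moved with diet in the same female libraries, where 5.42% of all genes passed. Of 8 LSK markers 1 rose and 0 fell, with 6 positive, 2 negative and a median log2 fold change of 0.45. The 10 B and plasma cell markers were all positive with a median of 0.46, beside 0.49 for the 42 interferon genes. Of 10 B and plasma cell markers 3 rose (Igkc 1.63, Jchain 1.5 and Cd79b 0.50), with a summed level of 519 to 2212 CPM in Western-diet females and 375 to 1182 CPM in control females, and in males none passed. Of 8 erythroid markers 5 fell in females, at 918 to 2632 CPM summed in Western-diet females and 1928 to 7407 CPM in control females. In males 1 of 8 fell, when 0.0102% of all genes passed, at 1397 to 2971 CPM in Western-diet males and 3593 to 6289 CPM in control males. All 8 erythroid markers were negative in each sex, with a median log2 fold change of -1.19 in females and -1.22 in males. Plasmacytoid dendritic cells are the strongest interferon producers. Of their 8 markers Ccr9 fell in females (-0.63), the summed level was 380 to 663 CPM in Western-diet females and 253 to 664 CPM in control females, and Siglech stayed at or below 12.0 CPM in both. No macrophage, T and NK cell or neutrophil marker passed for diet by edgeR in either sex. The part of these cells in the interferon values was not tested.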

How the data were processed

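RNA of 24 sorted LSK samples was made into libraries with a low-input polyA kit, per the labels' protocols, from RNA with an integrity number over 8.0. The deposited files hold raw read counts per gene for each library; FastQC, cutadapt, STAR, HTSeq and DESeq2 and the build GRCm39 are named in the submitters' processing notes, with no versions, and the strand setting of counting is not given in the sources used here. Closing lines that name no gene, 31.0% to 39.3% of each file, were left out. Depth in genes was 38057263 to 51581968 counts, which limits precision for low genes only by counting error. No pair of libraries agreed within sampling noise (lowest chi-square per degree of freedom 17.4).

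Counts were filtered with filterByExpr, scaled by TMM (factors 0.932 to 1.05) and fitted with edgeR 4.0.16 (quasi-likelihood, robust; R 4.3.3) over all 24 libraries, with group and batch as terms, and with group by batch for the batch values. P-values were Benjamini-Hochberg adjusted over all 19616 genes at 0.05, and an SE is the log2 fold change divided by the square root of F. The common biological coefficient of variation was 0.261. CPM are TMM-scaled and are not comparable between genes. The fit was tested on simulated data. DESeq2 1.42.0, limma-voom (limma 3.58.1), other scaling and filters, other designs, and leaving out batches and libraries were alternatives; a fit without the 2 female controls of batch 3 was chosen after seeing the data. The 42 genes are all named; other genes come from the pathway and marker lists. The members and lists, and the test of batch 3 against the other batches, were chosen with earlier results of these data known. Promoters are RefSeq sequences of GRCm38.p6, and 10 members had no entry in that table: Mx1, Rtp4, Dhx58, Oas2, Mx2, Usp18, Zbp1, Parp9, Parp14 and Ifi27. One gene of the pathway lists is not reported here.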

Additional observations from a re-analysis of the deposited data

Results flagged for a closer look

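Of 168 tests of a gene in a group of 6 libraries, 14 had 1 library far from the other 5, with a gap over 0.625 of the range. The nominal rate of such gaps is about 1 in 20. Of the 14, 7 came from male control library 1 and 3 from female control library 2. The tests are thus not independent, and they used CPM pooled over 3 batches, so the 14 cannot be judged against that rate. In male control library 1 the highest values of the group were 67.2 CPM for Ifih1, 21.8 for Zbp1, 39.1 for Ifit1, 11.05 for Mx1, 165 for Ifitm1, 398 for Ifitm3 and 47.4 for Ifi44. In female control library 2 they were 66.0 CPM for Irf7, 13.0 for Ifit3 and 19.1 for Herc6. In Western-diet male library 4 they were 42.8 CPM for Ifit2 and 23.9 for Ifi44. Western-diet female library 6 had the lowest Cmpk2 of its group, 25.1 CPM, and Western-diet female library 5 the highest Parp12, 9.71 CPM.

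The female diet effect in batch 3 differed from the mean of batches 1 and 2, by a test of that difference in edgeR, for 9 members. Batch 3 was picked for this test with earlier results of these data known, so the calls are not independent of that choice. The log2 differences were 1.57 for Oas1a, 1.70 for Ifitm1, 1.97 for Ifitm3, 1.99 for Bst2, 2.32 for Isg15, 1.55 for Trim30a, 1.25 for Parp12, 1.38 for Ifi27 and 1.56 for Epsti1.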

How the results depend on the processing

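In females 8 members were called. The count was 21 with no filter on low counts (5.34% of all genes called), 13 with DESeq2 (9.2%), 3 with limma-voom (3.7%), 1 with no batch term (2.06%), 2 with only the groups compared in the fit (1.96%), 2 without batch 2 (1.52%), 1 without batch 3 (0.734%) and 1 without both female control libraries of batch 3 (0.763%), against 5.42%. With the replicate number as a block in place of batch it was 4 (4.22%); same-numbered libraries had correlations of group-centred values from -0.04 to 0.38 in females and 0.03 to 0.32 in males, so the numbers were not taken to pair them. Leaving out 1 library gave 2 to 12 calls in females (2.54% to 6.99% of all genes) and 0 to 1 in males (0.00503% to 0.0655%). It gave 2 to 9 in the average (3.61% to 7.38%) and 0 to 0 for the sex comparisons and the difference between sexes. The female count was 3 without control library 1 (3.87% of all genes) or Western-diet library 6 (4.36%). It was 4 without Western-diet male library 2, 3 or 6 (4.55%, 4.51% and 4.61%). It was 5 without Western-diet female library 1 (6.36%), control female library 3 (3.76%), Western-diet male library 1 (4.7%) or control male library 4 (4.43%). In males the count of 0 (0.0102% of all genes) was 2 with no filter (1%). It was 1 with a filter of 1 CPM (0.0676%), with DESeq2 (0.505%) or with limma-voom (0.571%). In the average the count of 3 (5.7% of all genes) was 10 with no filter (4.47%) and 5 with limma-voom (7.67%). It was 1 with no batch term (2.38%), without batch 2 (2.84%), without batch 3 (0.719%) or without the female pair (2.22%). With no filter 12 members were called for the difference between sexes (1.51% of all genes, against 0%) and 13 for sex in controls (3.42%, against 0.112%). The batch 3 difference had 9 calls, 14 with DESeq2 (12.6% of all genes) and 6 with limma-voom (3.73%), against 7.11%. The causes were not tested. Isg20 was called in females under all 36 settings (log2 -0.85 to -0.74) and in males under 6 of 36. None of the genes called for diet reversed. Among uncalled members signs did change, for at most 9 in females and 15 in the average (both without batch 3), 11 in males (without batch 1 or without control male library 1) and 20 for sex in Western-diet pups (without batch 3).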
